A study of Rattus norvegicus with 4 samples.

Results

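The miRNAs described here are miR-297, miR-466b, miR-466c and miR-466d of the rat, whose hairpins are built largely of short alternating repeats of T and G, C and A, or A and T. They were taken by name (rno-mir-297, rno-mir-466b, rno-mir-466c and rno-mir-466d) from the tag files, with numbered genomic copies pooled. They had been selected on their counts in these same libraries, high in stem cell exosomes and 0 in tissue exosomes. Of these 4, 3 had a tag in at least 1 library, among 262 named miRNA genes with a tag in all. Their contrast between the groups is therefore given as a description, with no test.

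The libraries hold small RNA of exosomes, small vesicles that cells release, of the rat. Exo-AT is the exosome fraction of minced adipose tissue of Sprague-Dawley rats 4 weeks old, kept in a stirred flask with 75 mL of medium at 100 turns a minute for 3 days, so it can come from any cell of the tissue. Exo-ADSCs is the exosome fraction of adipose stem cells at passage 3, kept for 3 days in medium without serum, and α-MEM with penicillin and streptomycin was used for both. Each group has 2 libraries, but tag counts were used for Exo-AT replicates 1 and 2 and Exo-ADSCs replicate 2 only, so no Exo-ADSCs value has an SD.

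A miRNA is cut from a hairpin precursor as a short RNA of defined ends, and bases 2 to 8 from its 5′ end, the seed, choose the messages it pairs with. The miR-297 and miR-466 families are best known from the mouse, where many copies of them lie in an intron of Sfmbt2, a Polycomb gene that is imprinted in the placenta. In the rat RefSeq annotation (GRCr8) the Mir466b, Mir466c and Mir466d genes also lie within Sfmbt2, on chromosome 17. Mir297 lies on chromosome 10 within a long non-coding RNA gene, between the coding genes Sox9, a transcription factor of cartilage, and Slc39a11, a zinc transporter. Repeat-rich sequence of this kind occurs at very many places in mammalian genomes.

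RefSeq holds a mature sequence for 4 of the 4 miRNAs, 7 distinct sequences with 7 distinct seeds, so no pair of them shares a seed. They are shown so that the reads assigned to each miRNA can be set beside its mature form. The seed is in capitals, all are on the minus strand, and coordinates are GRCr8.
miR-297 (chr10:98715721-98715743): aUGUAUGUgugcauguaugcaug
miR-466b-5p (chr17:72945547-72945568, first copy): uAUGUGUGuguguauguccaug
miR-466b-3p (chr17:72945512-72945533, first copy): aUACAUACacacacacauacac
miR-466b-2-3p (chr17:72942475-72942495): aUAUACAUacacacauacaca
miR-466c-5p (chr17:72927649-72927669): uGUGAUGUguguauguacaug
miR-466c-3p (chr17:72927610-72927630): uAUACAUGcacacauacacac
miR-466d (chr17:72913060-72913081): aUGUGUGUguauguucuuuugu
The 5p sequences and miR-466d are made mostly of U and G, and the 3p sequences mostly of A and C.

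The libraries differ in depth and make-up. Hairpins received 15200 counts in Exo-AT replicate 1, 181049 counts in Exo-AT replicate 2 and 715114 counts in Exo-ADSCs replicate 2, of which named miRNAs held 9134, 136024 and 97204. Hairpins that the authors predicted took 39.9% and 24.9% of assigned counts in the Exo-AT libraries and 86.4% in Exo-ADSCs replicate 2. The Exo-AT files carry the same sample name inside, and nothing says that replicates came from separate animals or cultures. Stromal miRNAs (miR-143, miR-145, miR-199a, miR-214 and miR-21) were abundant throughout, with sums of 231662 and 157516 CPM (counts-per-million, of named counts) for Exo-AT and 190280 CPM for Exo-ADSCs, and miR-145 was at 0 in Exo-AT replicate 1. Markers of other cells had more CPM in both Exo-AT libraries: endothelial miR-126a had 3832 and 5102 CPM there against 329 CPM in Exo-ADSCs, and the erythroid miRNAs (miR-451, miR-144, miR-486) summed to 51018 and 166978 CPM against 33527 CPM, with miR-144 at 0 in Exo-AT replicate 1. Lymphocyte miR-150 had 219 and 507 CPM (2 and 69 counts) in Exo-AT libraries against 0 counts in Exo-ADSCs. The 219 CPM of Exo-AT replicate 1 is below the 328 CPM that a count of 0 allows there. The muscle miRNAs (miR-1b, miR-133a, miR-206) had 1971 and 1470 CPM against 206 CPM, with miR-133a and miR-206 at 0 in Exo-AT replicate 1. Liver miR-122 had 657 and 463 CPM (6 and 63 counts) against 226 CPM (22 counts). The part of these cells in what follows was not tested.

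In counts, all members were at 0 in both Exo-AT libraries and the counts were in Exo-ADSCs replicate 2. miR-297 had 0 and 0 counts in Exo-AT and 302 counts in Exo-ADSCs, in 19 distinct tags. miR-466b had 0 and 0 counts in Exo-AT and 48 counts in Exo-ADSCs, and miR-466c had 0 and 0 in Exo-AT and 17 in Exo-ADSCs. miR-466d was at 0 in all 3 libraries, and whether its hairpin was among those the authors aligned to is not given. If it was, the 0 allows up to 328 and 22.1 CPM in the Exo-AT libraries and 30.9 CPM in Exo-ADSCs. miR-297 thus held 82.3% of the 367 member counts and was the miRNA arm with the 20th highest count in Exo-ADSCs, while miR-466b and miR-466c ranked 60 and 94 of 264.

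**Figure D1:**
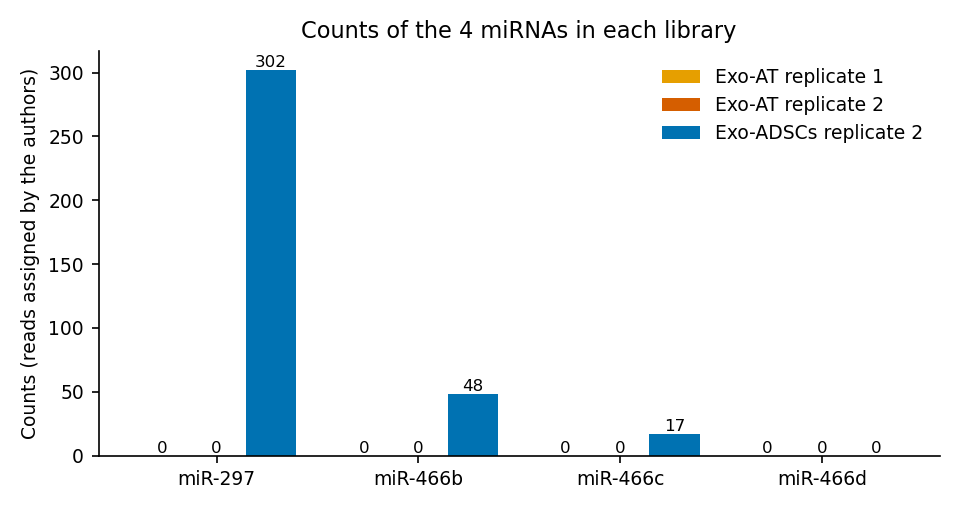
Counts assigned by the authors to miR-297, miR-466b, miR-466c and miR-466d (x axis, copies pooled) in each of the 3 libraries with tag counts; each bar is 1 library, with its count above it. Both Exo-AT libraries are at 0 for all 4 miRNAs, and Exo-ADSCs replicate 2 has 302, 48, 17 and 0.

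Scaled with TMM, the members summed to 5691 CPM in Exo-ADSCs replicate 2. Set against 3 counts over both Exo-AT libraries, which is what a count of 0 allows, they were at least 304-fold lower in Exo-AT (exact binomial 95% interval of the bound 274 to 337). In these bulk fractions, fewer vesicles from a type of cell and less of an RNA in each cannot be told apart. That lower bound was 250-fold for miR-297, 39.8-fold for miR-466b and 14.1-fold for miR-466c. Nearly all of it rests on the deeper tissue library: without Exo-AT replicate 2 the bounds were 24-fold for the sum, 19.8-fold for miR-297, 3.15-fold for miR-466b and 1.11-fold for miR-466c. Scaled to all assigned counts, predicted hairpins included, the bounds were 33.6-fold for the sum, 27.6-fold for miR-297, 4.39-fold for miR-466b and 1.56-fold for miR-466c. Of 183 miRNA arms with at least 15 counts over the libraries, 37 (20.2%) had at least a 4-fold lower level in Exo-AT with no overlap, 36 (19.7%) had at least a 4-fold higher one, and 13 (7.1%) had 0 counts in both Exo-AT libraries. The 3 member arms that passed this minimum, of 8 possible, were among the lower ones, as their choice fixed. The authors' deposited table of 45 miRNAs raised in Exo-AT lists 0 of the members, which their 0 counts in Exo-AT likewise fixed.

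The tags behind the counts were then described by arm, length, mismatches and number of hairpins. The rule for the members sums their counts by these same features, so the shares that follow are descriptions of the reads of 1 library, with no test. For miR-297, every tag lay at the 3′ end of the hairpin and ran beyond it. The hairpin, identical in the files and in RefSeq, has 66 bases and is shown because its last 12 bases, in capitals, are the only ones that any tag touched.
miR-297 hairpin: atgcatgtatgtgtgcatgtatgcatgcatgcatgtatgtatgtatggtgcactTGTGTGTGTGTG
The annotated mature miR-297 takes positions 5 to 27 of it. The tags began at positions 55, 56 and 57, with 134, 56 and 112 counts, so 302 of 302 counts (100%, Wilson interval 98.7 to 100) held no base of mature miR-297. Among the other named miRNAs with a RefSeq mature sequence, 0.872% of counts in the same library held none, and 7.11% and 5.99% in Exo-AT replicates 1 and 2.

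Each miR-297 tag matched the hairpin with 10 to 12 bases of TG repeat and then carried 3 to 5 bases that lie past its end, in capitals here. These are the 6 most frequent of the 19.
84 counts: tgtgtgtgtgtgATGTT
53 counts: tgtgtgtgtgATGTT
47 counts: tgtgtgtgtgACATT
28 counts: tgtgtgtgtgtgACATT
27 counts: gtgtgtgtgtgACATT
11 counts: gtgtgtgtgtgATGTT
The ends ATGTT, with 148 counts, and ACATT, with 102, made up 82.8% of the miR-297 counts. The other tags ended in 12 further ways, such as TGATG (6 counts) or GTATA (4 counts), each with 2 to 8 counts. Of the 14 tags that filled all 5 positions after the hairpin, 9 different 5-base ends were seen, so at most 1 of these can be the genomic sequence that follows Mir297.

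The files list 0 mismatches for these tags. The listed number of mismatches equalled the differences on the hairpin itself, bases past either end left out and unread bases (N) not counted, in every alignment without an indel (1258 and 4470 of them for Exo-AT, 5317 for Exo-ADSCs). Up to 5 bases before or past a hairpin therefore did not enter the listed number. Such overhang was rare elsewhere: 82.3% of member counts (Wilson interval 78.1 to 85.9) had bases off the hairpin, against 0.426% (0.387 to 0.47) for other named miRNAs in the same library, while the named counts of Exo-AT held 0.263% and 0.172%. miR-297 alone made up 302 of the 715 overhanging named counts in Exo-ADSCs replicate 2, ahead of miR-486 with 104 and miR-6328 with 57.

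**Figure D2:**
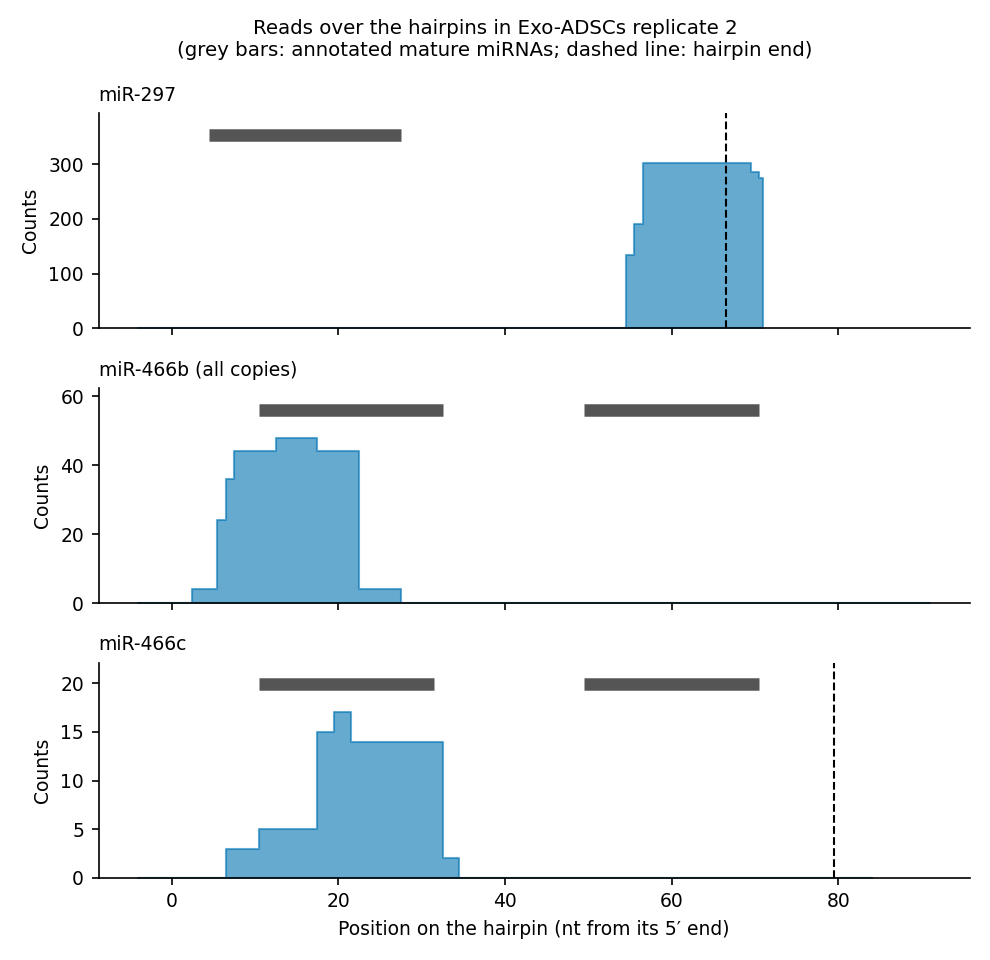
Counts covering each position of the hairpins of miR-297, miR-466b (copies pooled, mature positions of the second copy) and miR-466c in Exo-ADSCs replicate 2, with position in nt from the hairpin's 5′ end on the x axis; grey bars mark the annotated mature miRNAs and the dashed line the hairpin's last base. The miR-297 reads lie from position 55 to 71 across the end of a 66-base hairpin, away from the mature sequence at 5 to 27, and the miR-466b and miR-466c reads lie around the 5p mature sequence and not on the 3p one.

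For miR-466b all 48 counts were on the 5p arm, which overlaps the annotated miR-466b-5p at positions 11 to 32, and all carried a mismatch. Its 3 leading tags are shown with the mismatched base in capitals.
20 counts: gtgtatatgtAtgtgtg
8 counts: tgtatatgtAtgtgtg
8 counts: gtatatgtAtgtgtg
They differ only in where they begin (hairpin positions 6, 7 and 8), and their substitutions, G11A, G10A and G9A counted from 1 at the tag's 5′ end with the hairpin's base first, fall on the same base, position 16 of the hairpins of copies 2 and 4, with 36 counts together. The counts are whole numbers after division between copies, so the 20 counts stand for 19 reads. They end at position 22, inside the mature sequence. Tags starting within 2 nt of the annotated 5′ end held 4 of 48 counts. These 4 counts stand for 2 reads of a single tag, and another tag starting there had 2 reads and 0 counts. The 4 copies of the hairpin in the files have 2 distinct sequences, so copies 1 and 3, or 2 and 4, cannot be told apart, and 100% of miR-466b counts came from tags on more than 1 hairpin.

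miR-466c had 4 tags, all on its 5p arm, whose mature sequence spans positions 11 to 31.
10 counts: tgtgtatgtacaCgt
3 counts: tgtatgtgatgtgtg
2 counts: tgtatgtaTatgtgt
2 counts: tgtgatgtgtgtatgtaTatgt
The tag of 22 nt has the length of a mature miRNA and begins at the annotated 5′ end of miR-466c-5p, with the substitution C18T. It was the only 1 of the 29 member tags to begin at an annotated 5′ end, and it stood for 2 counts. The tag with 3 counts was the only 1 that lay wholly on its hairpin with no difference, and it began at position 7, ahead of the mature sequence. The tag with the substitution C9T also aligned to miR-466b, with G4A there, and was divided between both. The 3p arms of miR-466b and miR-466c had 0 counts.

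Over all members, 6 of 367 counts (1.63%, Wilson interval 0.751 to 3.52) began within 2 nt of an annotated 5′ end. For other named miRNAs in Exo-ADSCs replicate 2 the share was 89.7% (89.5 to 89.9), over the 92980 counts on hairpins with a RefSeq mature sequence. Reads wholly on the hairpin with no listed difference were 0.817% of member counts (0.278 to 2.38) and 76.6% of other named counts (76.3 to 76.8). The share with no mismatch listed, 83.1% for the members and 76.9% for the others, does not show this difference, because the miR-297 overhang is not scored. These intervals set reads of 1 library beside each other and say nothing of variation between cultures.

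**Figure D3:**
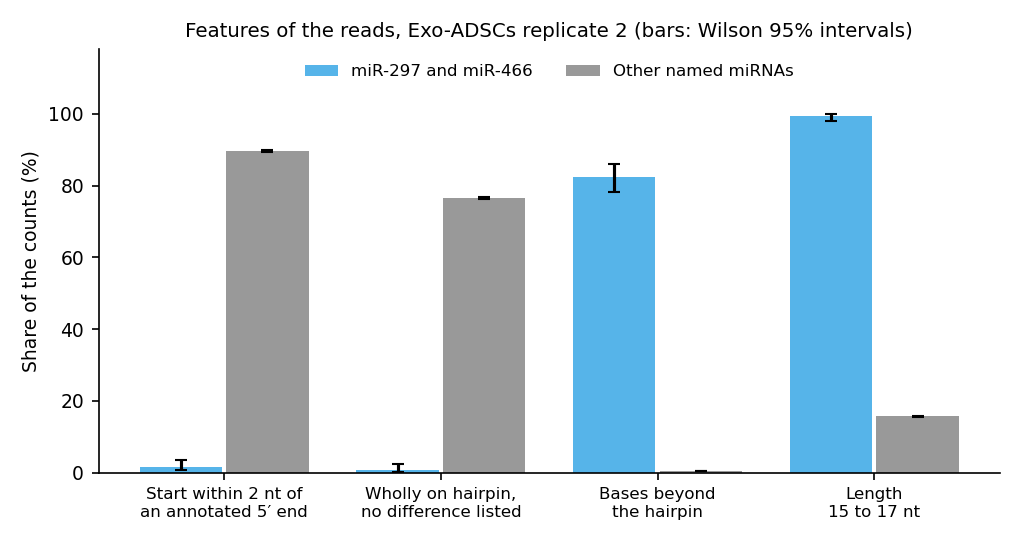
Share of counts (y axis, %) in Exo-ADSCs replicate 2 with each of 4 features, for miR-297 and miR-466 together and for all other named miRNAs; error bars are Wilson 95% intervals. Starts within 2 nt of an annotated 5′ end are 1.63% against 89.7%, and reads with bases beyond the hairpin are 82.3% against 0.426%.

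The member reads were short, and for miR-297 this is not separate from the overhang. Its 12 end bases of TG and at most 5 bases past them allow reads of up to 17 nt without a mismatch. Longer reads of the same make could be listed only with a mismatch or indel there, or on another hairpin. Reads of 15, 16 and 17 nt had 166, 67 and 132 counts, together 99.5% of the total (98 to 99.9), and 15 nt was the shortest length in any of the files. Among the other named miRNAs 15.7% of counts in Exo-ADSCs replicate 2 were of that length, and 7.78% and 5.73% in Exo-AT replicates 1 and 2. Lengths of 20 to 25 nt held 0.545% of member counts (0.15 to 1.96), against 44.9% of the others in the same library and 80.8% and 84.5% in Exo-AT. Limited to that length the members had 0 and 0 counts in Exo-AT and 2 counts in Exo-ADSCs, too few for a fold.

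**Figure D4:**
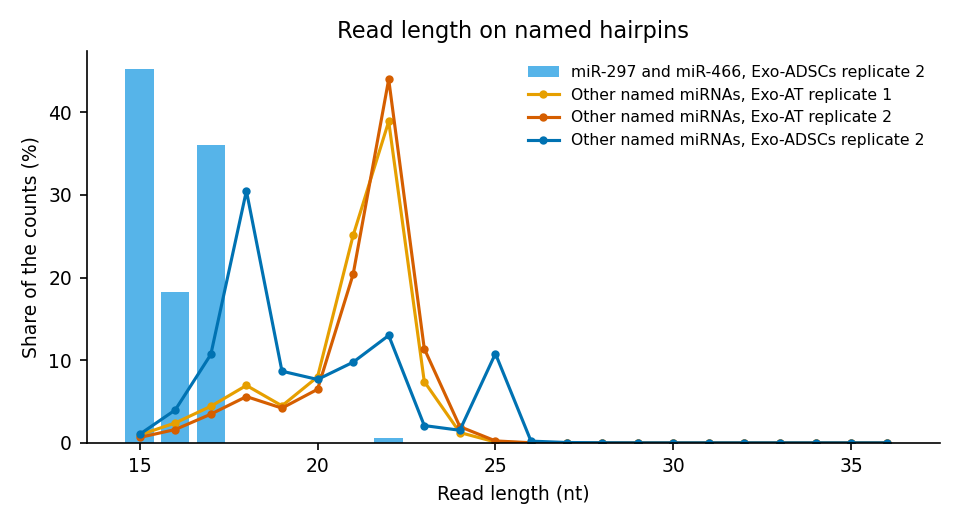
Share of counts (y axis, %) by read length in nt (x axis) for miR-297 and miR-466 in Exo-ADSCs replicate 2 (bars) and for other named miRNAs in each of the 3 libraries (lines). The member reads are at 15 to 17 nt with 0.545% at 22 nt, below the peak of the other named miRNAs in each library.

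Some member reads could be placed elsewhere too. Tags that also aligned to the hairpin of another gene or to a predicted hairpin held 76 of 367 member counts (20.7%, 16.9 to 25.1), against 0.932% (0.874 to 0.995) for other named miRNAs in the library. With copies of the same miRNA included, tags on more than 1 hairpin held 32.7% (28.1 to 37.7) against 6.74% (6.58 to 6.9). Predicted hairpins alone shared 19.1% of member counts against 0.677%. The tag of 15 nt ending in ATGTT had 106 reads, of which 53 were given to miR-297 and 53 to a predicted hairpin on chromosome 15, where it has a mismatch. Undivided, the 29 tags stood for 438 reads in place of 367 counts.

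Reads with the same ATGTT end also occurred with longer TG runs. In Exo-ADSCs replicate 2, tags made of an uninterrupted TG repeat followed by ATGTT came in 8 lengths from 15 to 25 nt with 312 reads, and in Exo-AT replicates 1 and 2 they had 0 reads each. Of the 8, 4 are shown to make the ladder of lengths visible, with the shared end in capitals.
9 reads, 25 nt: tgtgtgtgtgtgtgtgtgtgATGTT
28 reads, 23 nt: tgtgtgtgtgtgtgtgtgATGTT
31 reads, 19 nt: tgtgtgtgtgtgtgATGTT
106 reads, 15 nt: tgtgtgtgtgATGTT
The 3 tags of 15 to 17 nt, 211 reads, are those counted for miR-297, where they make up 148 counts. The 5 tags of 19 to 25 nt, 101 reads, were given to a predicted hairpin on chromosome 4 only, each with an inserted base. The TG repeat ending in ACATT was seen at 15, 16 and 17 nt only, with 102 reads, all on miR-297. The miR-297 hairpin ends in 12 bases of TG, and at most 5 bases may lie past it. Without a mismatch it can therefore take such reads up to 17 nt only. Longer reads with this end would be listed only with a mismatch or indel there, or if another hairpin took them. Their absence therefore does not give the length of the RNA.

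**Figure D5:**
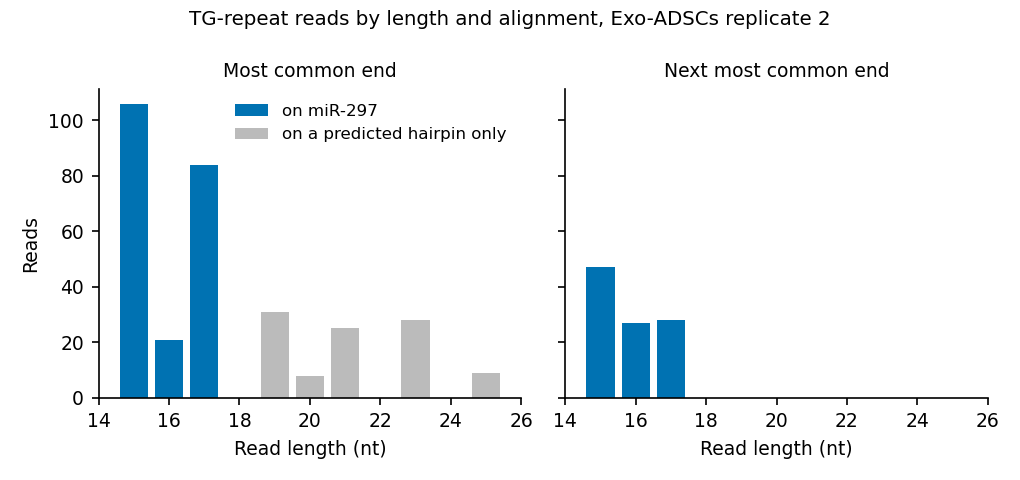
Reads (y axis) of tags made of a TG repeat and the 5-base end ATGTT (left) or ACATT (right), by read length in nt (x axis), in Exo-ADSCs replicate 2; bar colour gives whether the tag aligned to miR-297 or only to a predicted hairpin. With ATGTT, reads of 15 to 17 nt are on miR-297 (211 reads) and reads of 19 to 25 nt are not (101 reads).

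TG-repeat reads were then followed over all hairpins, as tags holding TGTGTGTG or GTGTGTGT, or on the other strand CACACACA or ACACACAC; these motifs overlap one another. In Exo-AT replicate 1 there were 0 such counts of 15200, which allows up to 197 CPM of assigned counts. Exo-AT replicate 2 had 60 counts in 6 tags, or 331 CPM, and Exo-ADSCs replicate 2 had 610 counts in 63 tags, or 853 CPM. On member hairpins they were 0 in both Exo-AT libraries and 306 counts in Exo-ADSCs, and on other named hairpins 0 in all 3 libraries. Reads of 20 to 25 nt were 61% of TG-repeat reads in Exo-AT replicate 2 (36 of 59) and 18.9% in Exo-ADSCs replicate 2. Of those 36, 16 reads were of a tag that holds CACACACA and no TG repeat. The other 20 reads came from 3 tags that open with TGAG or TTAG before the repeat. These 3 resemble a TG-rich miRNA known from other mammals that no named rat hairpin in the files carries. They are shown with their bases before the predicted hairpin, and their mismatched base, in capitals.
13 reads: TGAGtgtgtgtgtgtgAgtg
5 reads: TGAGtgtgtgtgtgtgAgtgtg
2 reads: TTAGtgtgtgtgtgtgAgtgtg
The TG-repeat class therefore mixes reads of different kinds, and its levels in the libraries are not levels of the same RNA. Of the 29 member tags, 0 were found on any hairpin in either Exo-AT library.

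Other miRNAs with 0 counts in both Exo-AT libraries over the same 3 libraries were of both kinds. Those with the most counts in Exo-ADSCs replicate 2 were miR-21-3p with 84, miR-6328-5p with 57, miR-146b-3p with 32, and miR-194-5p, miR-215-5p and miR-3557-5p with 23 each. In miR-21-3p, the opposite-arm product of miR-21, 100% of counts began within 2 nt of the annotated 5′ end and 92.9% were of 20 to 25 nt, and miR-194-5p and miR-215-5p also had 100% of their counts within that distance of it. miR-6328-5p, like miR-297, had 100% of its counts overhanging the hairpin, at a mean of 15.5 nt. miR-146b-3p, with 1 tag, and miR-3557-5p, with 3, had 100% of their counts at 15 to 17 nt and 0% without a mismatch, as miR-466b did.

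Other named hairpins with repeat letters were set beside the members. In the files 39 of 262 named miRNA genes (14.9%) have at least 1 of 4 motifs in the hairpin as printed there, TGTGTG in 25 (9.54%), CACACA in 10 (3.82%), ATGTAT in 6 (2.29%) or ATACAT in 8 (3.05%). Leaving out the members, 36 genes had 25 arms past the count minimum, of which 7 passed the 4-fold rule as lower in Exo-AT and 3 as higher, beside 37 and 36 of all 183. The median log2 ratio of Exo-AT to Exo-ADSCs, with a group at 0 set to 3 counts, was -0.74 for these arms and 0.53 for all 183. The members had -5.31, a bound that follows from their choice by 0 counts in Exo-AT and not a result to set against the others. miR-99b-5p, miR-100-5p, miR-24-3p, miR-17-5p, miR-3557-5p, miR-300-5p and miR-190b-5p were the lower ones and miR-1b-3p, miR-203b-3p and miR-450a-5p the higher ones. No other miR-466 or miR-297 name had a tag under a named hairpin in the files, and predicted hairpins, which carry no miRNA name, were not searched for further family members.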

How the data were processed

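Small RNA of rat exosomes was sequenced (4 libraries, 2 groups). For 3 libraries the authors deposited counts per distinct read sequence (tag) and hairpin, per the file headers; a tag on several hairpins has its counts divided among them. Novoalign 2.07.11 and rn6 are named in the submitters' processing notes; how reads were trimmed, hairpins predicted and which miRNA release served is not given in the sources used here. The file of Exo-ADSCs replicate 1 holds no value per miRNA and was not used. The authors' list of 45 raised miRNAs was read for names only.

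Tags on named hairpins were summed per miRNA and arm, with copies pooled. Positions in the files were corrected for 5 bases counted before the hairpin. Scaling used TMM (edgeR 4.0.16, R 4.3.3); DESeq2 1.42.0 size factors were an alternative. Mature sequences and neighbouring genes came from RefSeq (GRCr8). Shares have Wilson 95% intervals (scipy 1.17.1) and folds exact binomial intervals. Both kinds treat every count as an independent draw and cover counting error at most. Reads carry no molecular identifiers, so copies of the same molecule cannot be told from separate molecules, and the intervals may be too narrow. Variation between cultures is not in them. The fold rule was tested on simulated counts with counting error only, which cannot show how it behaves under variation between cultures. The members and lists were chosen with earlier results of these data known, so the contrast between the groups has no test. Named were all members, the 3 leading tags of each (further tags shown were chosen after their values were seen), and the 5 other miRNAs with the most Exo-ADSCs counts among those with 0 in Exo-AT, ties included.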

Additional observations from a re-analysis of the deposited data

Results flagged for a closer look

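TG-repeat reads on hairpins that the authors predicted enter none of the comparisons of named miRNAs, and they were above what a count of 0 allows in both deeper libraries. Exo-AT replicate 1 held 0 counts of them, Exo-AT replicate 2 held 60, and Exo-ADSCs replicate 2 held 304. Of the 11 predicted hairpins that took them in Exo-ADSCs, 8 had some tag in Exo-AT replicate 2 and 0 had one in Exo-AT replicate 1. In Exo-AT replicate 2, 20 of 59 TG-repeat reads were of 3 tags that open with TGAG or TTAG and resemble a TG-rich miRNA known from other mammals. The tag sets differed, as 1 of the 6 TG-repeat tags of Exo-AT replicate 2 was also seen in Exo-ADSCs. That tag entered through the CACACACA motif and holds no TG repeat, with 16 reads in Exo-AT replicate 2 and 5 in Exo-ADSCs replicate 2.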

How the results depend on the processing

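The bound on how many fold lower the summed members were in Exo-AT was 304. It was 391 with DESeq2 size factors, 183 with totals of named counts and 33.6 with totals of all assigned counts. With only alignments that list no mismatch or indel it was 243. That setting kept 305 member counts, of which 302 were miR-297 tags with unscored bases past the hairpin. Only 3 member counts lay wholly on the hairpin with no listed difference. In alternatives chosen after the data were seen the bound was 53.9 with tags wholly on the hairpin and 374 with undivided reads. Leaving out 1 Exo-AT library gave 24 to 280. Tags of 20 to 25 nt left too few counts for a bound. The number of arms at least 4-fold lower in Exo-AT, 37, was 6 with all assigned counts, 90 with no filter on low counts, and 21 to 35 without 1 Exo-AT library; the number higher, 36, was 107 with all assigned counts. With each distinct tag counted once, the member share of 20 to 25 nt was 3.45%, the share with no mismatch listed 69% and the share on several hairpins 41.4%; without the top tag of each member the last 2 were 87.4% and 39.5%. The cause of these shifts was not tested. The other values tried for these results stayed within the counting interval or, for numbers of arms, within 1.5 times. Depth limits Exo-AT replicate 1 most, where a count of 0 allows 328 CPM. No paired analysis was possible because tag counts served for 1 library of Exo-ADSCs only.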
